A study of Rattus norvegicus with 9 samples.

Results

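The growth hormone and IGF axis was followed in rat liver through 10 genes chosen by name, Ghr, Prlr, Stat5b, Socs2, Cish, Igf1, Igfals, Igfbp1, Igfbp2 and Igfbp3. All 10 were found, each once, among the 32883 genes of the deposited table. Liver mRNA had been sequenced from 9 male Sprague-Dawley rats, 1 library a rat, in 3 groups of 3. The normal control rats (N1, N3 and N12) ate a normal diet and received no carcinogen. The DEN model rats (M13, M17 and M24) were injected into the peritoneum each week with 0.01% diethylnitrosamine (DEN), a liver carcinogen, in an experiment of 16 weeks. The PZH administration rats (G27, G28 and G42) received the same injections and were also given Pien-Tze-Huang (PZH), a traditional Chinese patent medicine. The groups follow the letter of each rat's name. A further tag, for treatment, gives PZH for M and G rats alike, and it was set aside. A period of 16 weeks of DEN is recorded alike for every sequenced M and G rat. Rats of this study were collected at several weeks and received PZH at a low or a high dose. The week of collection and the PZH dose of each sequenced rat are not given in the sources used here. All rats had been fasted before collection.

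Growth hormone from the pituitary binds its receptor on hepatocytes, and the receptor's kinase JAK2 then activates the transcription factor STAT5B. STAT5B turns on Igf1 and Igfals, the genes of the circulating growth factor IGF-1 and of the acid-labile subunit that holds IGF-1 and IGFBP-3 in a long-lived complex in blood, and also the feedback inhibitors Socs2 and Cish. The IGF binding proteins differ in their regulation, since Igfbp1 is known to rise in fasting and to be held down by insulin, while Igfbp2 is abundant in fetal liver.

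Total counts ran from 14922973 to 27161496 a rat, and G27 was the deepest library. Levels of 1 gene across rats are given as CPM, the count relative to a fixed total of reads after edgeR's TMM scaling, on which a floor of 3 counts is 0.125 to 0.252 CPM. Every rat had more than this floor for each of the 10 genes. The TMM factors were 0.731 to 0.799 in normal control, 1.21 to 1.58 in DEN model and 0.863 to 0.941 in PZH administration rats. Without TMM, that is with library totals, the median over all genes moved by 0.86 on the log2 scale in the DEN model against the normal control group and by -0.67 in the PZH administration against the DEN model group. With library totals the share of higher genes among those called went from 55.3% to 89.5% and from 45.7% to 8.89% in these comparisons, and from 78.0% to 90.0% in the PZH administration against the normal control group, where DESeq2 gave 67.8%. A list of 12 hepatocyte markers, with Alb, Ttr and Hnf4a among them, was detected in every rat. By the test defined below, 6 of the 12 were called lower in DEN model than in normal control rats, beside 20.5% of all genes. In PZH administration against DEN model rats 5 of the 12 were called higher, beside 8.72% of all genes. The 12 markers had median log2 fold changes of -1.58 and 1.14 in these comparisons. Their summed level was 173140 to 189870 CPM in normal control, 38090 to 87851 CPM in DEN model and 146750 to 183500 CPM in PZH administration rats. The sum of 6 cholangiocyte markers was 13.4 to 21.1, 235 to 756 and 80.9 to 107.6 CPM in the same order, and that of 7 stellate and myofibroblast markers 192 to 302, 1003 to 3118 and 585 to 706 CPM. Endothelial markers (5 found) summed to 333 to 409, 163 to 324 and 267 to 389 CPM, macrophage markers (6) to 428 to 836, 396 to 531 and 223 to 516 CPM, and lymphocyte markers (4 found) to 1.56 to 2.98, 3.91 to 23.4 and 1.28 to 4.04 CPM. Mitochondrial genes took 4.92% to 10.5% of counts in normal control, 9.92% to 10.6% in DEN model and 7.71% to 13.3% in PZH administration rats. In whole liver, fewer cells of a type and less RNA per cell cannot be told apart, and the part of these shifts in the differences below was not tested.

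In DEN model liver Ghr, Prlr, Stat5b, Igf1, Igfals and Igfbp1 fell and Cish and Igfbp2 rose relative to normal control liver, whereas Socs2 and Igfbp3 did not pass the test. Here and below a gene was called where edgeR's quasi-likelihood p, adjusted by the Benjamini-Hochberg method across the genes tested, was under 0.05. These 8 of 10 stand beside 45.8% of all 14255 genes tested, and the 6 lower genes beside 20.5% called lower. The thresholds used in the study, a log2 fold change beyond 2 in either direction and an unadjusted P under 0.001, were passed by Ghr, Igf1, Igfals and Igfbp2, 4 of 10 beside 12.3% of all genes. In 7 of the 10 genes the DEN model rats did not overlap the normal control rats, as in 58.8% of all genes. The 10 genes had a median log2 fold change of -1.16, against 0.03 for all genes. Leaving out N1, N3, N12 or M13 brought the number past the study's thresholds from 4 to 2. With library totals in place of TMM, 6 of the 10 genes were called, 3 higher and 3 lower, beside 9084 of all 14255 genes. Prlr, Stat5b and Igfbp1 were then not among the lower ones, and Igfbp3 joined the higher ones. Ghr (log2 fold change -1.69) and Igf1 (-1.31) then missed the study's thresholds, which 3 genes passed, 2 higher and 1 lower.

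In PZH administration liver Ghr, Igf1 and Igfals were higher than in DEN model liver, and the other 7 genes did not pass the test. These 3 of 10 stand beside 19.1% of all 14272 genes tested, and beside 8.72% called higher and 10.3% called lower. None passed the study's thresholds in edgeR's test (2.43% of all genes did), although 5 of the 10 had an unadjusted P under 0.05, and with DESeq2 1 passed. The study's own list for this comparison was longer than the 347 genes that passed here. That list came from the study's own p-values, which were not used, and it was not checked for these 10 genes. The groups did not overlap in 4 of the 10, as in 40.8% of all genes. The 10 genes had a median log2 fold change of 0.89, and all genes one of 0.01. When rat M13 was left out, the number called fell from 3 to 0, while that over all genes fell from 2722 to 271 of 14475. Without rat G28 the number called was 1, beside 1178 of all 14841 genes. Without rat M17, 2 of the 10 genes passed the study's thresholds.

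Against normal control liver, PZH administration liver held more Cish and Igfbp2, and the other 8 genes did not pass the test. The 2 of 10 stand beside 5.21% of all 13348 genes tested and 4.07% called higher, and Igfbp2 was past the study's thresholds (2.32% of all genes). The groups did not overlap in 6 of the 10, as in 24.2% of all genes. The number called was 0 without N1 and 0 without N3, 1 without N12 (Prlr, lower), 1 without G28 and 3 without G27. Over all genes it was 696 with every rat, 207 without N1, 432 without N3 and 335 without N12. It was 212 without G28 and 1326 without G27. The DEN model rats enter both comparisons above and the normal control rats enter 2 of the 3, so the 3 sets of values are given side by side and are not independent.

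**Figure D1:**
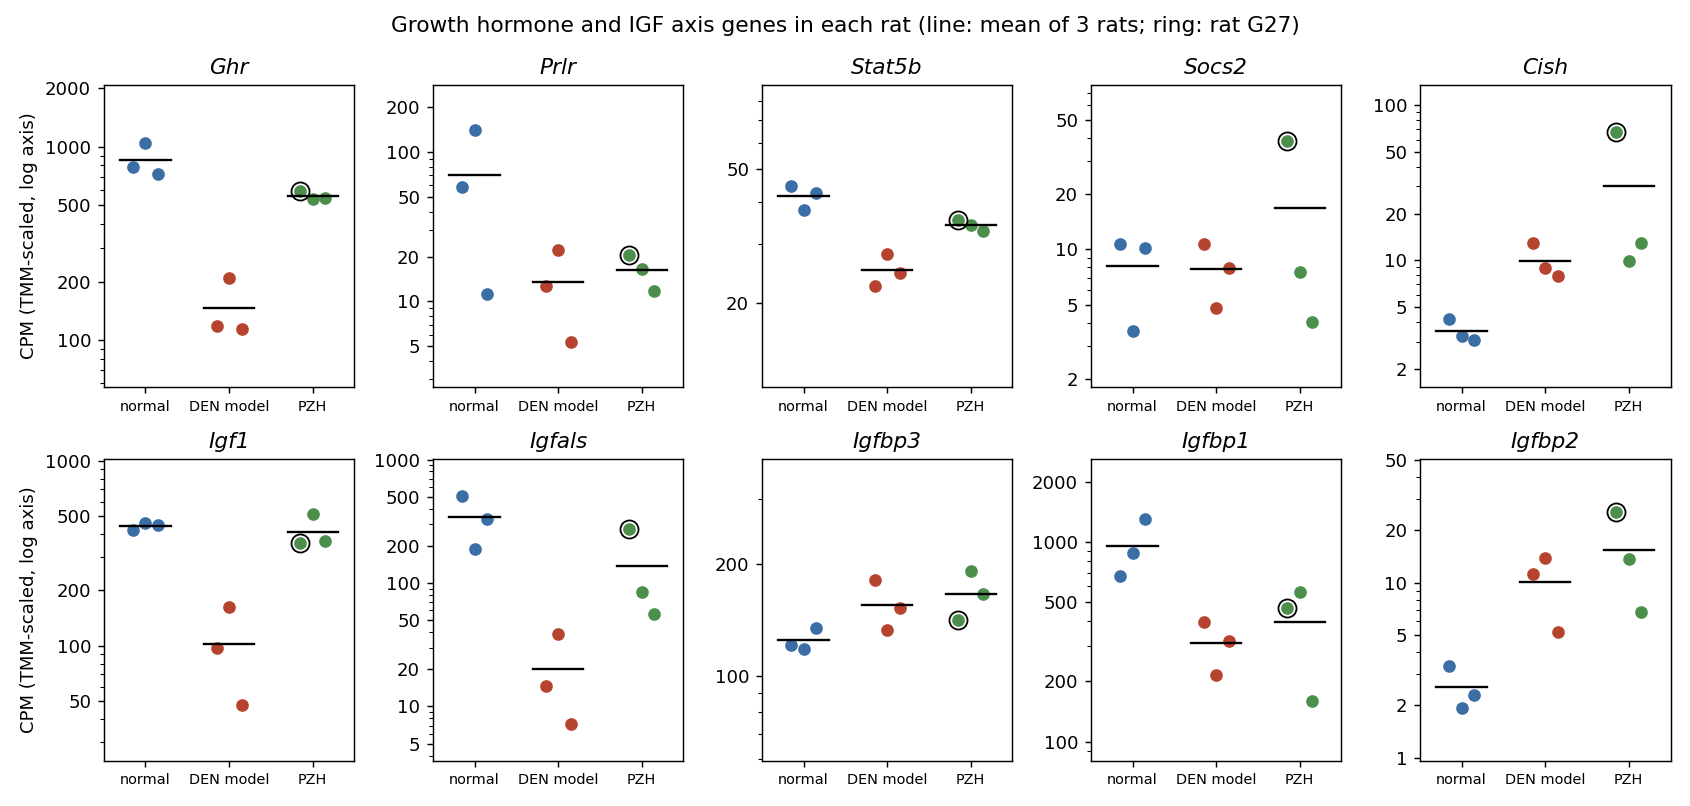
Level of each of the 10 genes in each rat, in TMM-scaled CPM on a log axis. Each point is 1 rat, the line is the mean of the 3 rats of a group, and a ring marks rat G27, which stood highest of the 3 PZH administration rats in 7 of the 10 genes. Ghr and Igf1 in DEN model rats lay below every rat of the other groups.

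**Figure D2:**
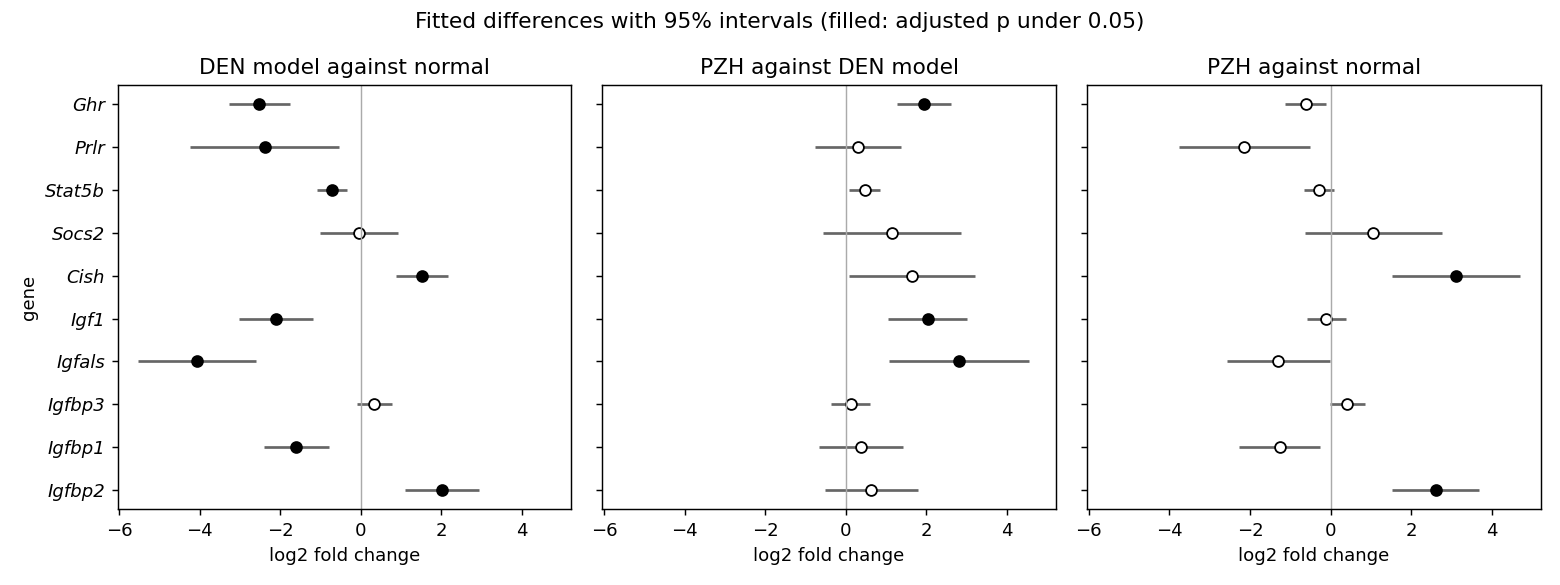
Fitted log2 fold change of each gene in the 3 comparisons, with the 95% interval as a bar; filled points are genes called by edgeR at an adjusted p under 0.05. Ghr, Igf1 and Igfals lie below 0 on the left and above 0 in the middle panel, while the intervals of Igfbp3 cross 0 in all 3 panels.

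Ghr, on chromosome 2 from 53150370 to 53413638 in the coordinates of the file (its genome build is not given in the sources used here), encodes the growth hormone receptor. Its level was 788, 1043 and 723 CPM in N1, N3 and N12, 118, 208 and 114 CPM in M13, M17 and M24, and 592, 536 and 543 CPM in G27, G28 and G42. The 3 groups did not overlap, with the PZH administration rats between the other two, and the PZH administration rats were within 1.10-fold of each other. In DEN model rats Ghr was 5.74-fold lower than in normal control rats (log2 fold change -2.52, standard error 0.33, edgeR adjusted p = 0.000704). After PZH it was 3.86-fold higher than in DEN model rats (log2 fold change 1.95, standard error 0.29, edgeR adjusted p = 0.00981), and without M13 the adjusted p was 0.0520. With library totals these log2 fold changes were smaller, at -1.69 and 1.32, and both were called. The difference between PZH administration and normal control rats was -0.61 on the log2 scale (95% interval -1.13 to -0.10) and did not pass the test (edgeR adjusted p = 0.178).

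Prlr (chromosome 2, 60131776 to 60325692), the gene of the prolactin receptor, a close relative of the growth hormone receptor, was the most scattered of the 10 genes in normal control liver. It stood at 59.0, 141 and 11.2 CPM in N1, N3 and N12, a 12.6-fold spread, at 12.7, 22.2 and 5.33 CPM in M13, M17 and M24, and at 20.5, 16.6 and 11.7 CPM in G27, G28 and G42. N12 lay within the range of the DEN model rats. The fall in DEN model rats (log2 fold change -2.38, standard error 0.81, edgeR adjusted p = 0.0402) lost its call without N1, N3, M13 or M24 and with library totals (adjusted p = 0.0720), and without N3 the log2 fold change was -1.36. Its log2 difference was 0.31 (95% interval -0.76 to 1.38) in PZH administration against DEN model rats and -2.14 (-3.77 to -0.51, edgeR adjusted p = 0.144) against normal control rats.

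Stat5b (chromosome 10, 88686207 to 88754829), the gene of the transcription factor that carries the growth hormone signal to the nucleus, was at 44.6, 37.8 and 42.7 CPM in N1, N3 and N12, at 22.5, 28.03 and 24.6 CPM in M13, M17 and M24, and at 35.4, 34.0 and 32.7 CPM in G27, G28 and G42. The groups did not overlap on this scale. The fall in DEN model rats was 1.64-fold (log2 fold change -0.72, standard error 0.16, edgeR adjusted p = 0.00746), but with library totals the direction turned to 0.13 (adjusted p = 0.576). In the authors' FPKM, which carry no TMM scaling, Stat5b was 10.01 ± 1.29 in normal control, 10.9 ± 0.902 in DEN model and 9.58 ± 0.176 in PZH administration liver (SD, n = 3 each). In PZH administration against DEN model rats the log2 difference was 0.47 (95% interval 0.09 to 0.85, edgeR adjusted p = 0.0817), which library totals turned to -0.19.

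Socs2 (chromosome 7, 36495480 to 36499784), whose protein restrains growth hormone receptor signalling, was at 10.7, 3.61 and 10.2 CPM in N1, N3 and N12, at 10.7, 4.85 and 7.95 CPM in M13, M17 and M24, and at 38.6, 7.59 and 4.06 CPM in G27, G28 and G42. G27 lay above all other rats, and the remaining PZH administration rats lay within the range of the normal control rats. The log2 difference of Socs2 was -0.04 (95% interval -1.01 to 0.93) between DEN model and normal control rats and 1.15 (-0.57 to 2.87) between PZH administration and DEN model rats. Without G27 the second value turned to -0.40.

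Cish (chromosome 8, 116054465 to 116060723), the gene of the cytokine-inducible SH2 protein, was at 4.22, 3.27 and 3.05 CPM in N1, N3 and N12, at 12.96, 8.96 and 7.91 CPM in M13, M17 and M24, and at 67.4, 9.95 and 12.9 CPM in G27, G28 and G42. Every DEN-injected rat, with or without PZH, lay above every normal control rat. Cish was 2.86-fold higher in DEN model rats (log2 fold change 1.52, standard error 0.28, edgeR adjusted p = 0.00312), a call that was lost when all 3 groups entered 1 fit (adjusted p = 0.0785). In PZH administration against normal control rats it was 8.62-fold higher (log2 fold change 3.11, standard error 0.70, edgeR adjusted p = 0.0394). Without G27 that log2 fold change was 1.70 (adjusted p = 0.00958), and it missed the threshold without N1, N3 or N12 (adjusted p of 0.108 to 0.131). Between PZH administration and DEN model rats the log2 difference was 1.64 (95% interval 0.07 to 3.21, edgeR adjusted p = 0.129). DESeq2 called this difference (adjusted p = 0.0345), and without G27 it was 0.22 in edgeR. Cish counts amounted to 0.314% to 0.535% of Ghr counts in normal control rats, 4.31% to 10.999% in DEN model rats and 1.86% to 11.4% in PZH administration rats, ratios within a rat that no library scaling changes.

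The Cish promoter is shown because its letters hold the STAT5 motif TTCNNNGAA 4 times, a motif that reads the same on both strands. Of 33469 RefSeq promoter windows of 300 bases (250 before and 50 after the start, build GRCr8), 8.87% held the motif at least once and 2 windows held it 4 times or more. Promoter windows were given for 9 of the 10 genes, in 10 windows, and besides Cish the motif was found once in a window of Prlr. The 250 bases before the start of Cish, at chr8:116850719-116850968 on the plus strand, read 5′ to 3′ as follows, with the matches in capitals at 241, 230, 136 and 119 bases before the start.
Cish: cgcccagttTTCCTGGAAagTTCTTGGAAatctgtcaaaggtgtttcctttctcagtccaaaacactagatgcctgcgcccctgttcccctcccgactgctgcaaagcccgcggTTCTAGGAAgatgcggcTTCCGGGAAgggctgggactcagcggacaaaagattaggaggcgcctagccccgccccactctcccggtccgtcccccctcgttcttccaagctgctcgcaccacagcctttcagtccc
A match of letters is a description of the window and not a measurement of binding.

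Igf1 (chromosome 7, 28412198 to 28486609), the gene of the growth factor itself, was the tightest of the 10 genes in normal control liver, at 423, 463 and 448 CPM in N1, N3 and N12. It was at 96.9, 163 and 47.6 CPM in M13, M17 and M24 and at 360, 513 and 369 CPM in G27, G28 and G42. Every DEN model rat lay below every other rat, and G28 lay above the normal control rats while G27 and G42 lay below them. Igf1 was 4.30-fold lower in DEN model than in normal control rats (log2 fold change -2.10, standard error 0.41, edgeR adjusted p = 0.00378). It was 4.11-fold higher in PZH administration than in DEN model rats (log2 fold change 2.04, standard error 0.43, edgeR adjusted p = 0.0186), with an adjusted p of 0.0800 without M13 and of 0.0562 without G28. With library totals these log2 fold changes were smaller, at -1.31 and 1.44, and both were called. Between PZH administration and normal control rats the log2 difference was -0.10 (95% interval -0.58 to 0.38), which library totals turned to 0.14.

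Igfals (chromosome 10, 14240219 to 14243597), the gene of the acid-labile subunit, had the largest fall of the 10 genes. Its level was 508, 189 and 332 CPM in N1, N3 and N12, 14.6, 38.7 and 7.24 CPM in M13, M17 and M24, and 272, 84.5 and 56.3 CPM in G27, G28 and G42. All DEN model rats lay below all others, and of the PZH administration rats G27 lay inside the normal control range and G28 and G42 below it. Igfals was 16.7-fold lower in DEN model rats (log2 fold change -4.06, standard error 0.64, edgeR adjusted p = 0.00155). It was 7.003-fold higher in PZH administration than in DEN model rats (log2 fold change 2.81, standard error 0.76, edgeR adjusted p = 0.0374), and this call was lost without M13, M24, G27 or G28, with adjusted p from 0.0623 to 0.133. Without G27 the log2 fold change was 1.83. With library totals and all rats the log2 fold changes of Igfals in these comparisons were -3.33 and 2.19, and both were called. Against normal control rats the log2 difference was -1.30 (95% interval -2.57 to -0.02, edgeR adjusted p = 0.263), and without G27 it was -2.28 (adjusted p = 0.0101).

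Ratios within a rat to transcripts of hepatocyte markers do not depend on library scaling, but they differed with the marker. Alb, the albumin gene, had a log2 fold change of -2.09 (standard error 0.69, edgeR adjusted p = 0.0367) in DEN model against normal control rats and of 1.91 (standard error 0.57, edgeR adjusted p = 0.0503) in PZH administration against DEN model rats. For every 1000 Alb counts there were 4.16, 4.98 and 4.98 Igf1 counts in N1, N3 and N12, 4.60, 5.28 and 3.37 in M13, M17 and M24, and 3.66, 6.76 and 5.35 in G27, G28 and G42, so the 3 groups overlapped. The same ratio of Ghr was 7.73 to 11.2 in normal control, 5.60 to 8.07 in DEN model and 6.01 to 7.90 in PZH administration rats. Per 1000 Alb counts Igfals was at 4.99, 2.03 and 3.68 in N1, N3 and N12 and at 0.695, 1.26 and 0.512 in M13, M17 and M24, with no overlap, and at 2.77, 1.11 and 0.819 in G27, G28 and G42. The same ratios were then taken to each of the 12 hepatocyte markers, which had themselves moved unequally, with log2 fold changes of -3.89 for Ttr and -0.30 for Apoa1 in DEN model against normal control rats. The DEN model rats lay below all normal control rats for Igfals with 10 of the 12 markers and overlapped them with Tat and Ttr. For Ghr they lay below with 7 markers, above with 2 and overlapped with 3, and for Igf1 below with 5, above with 2 and overlapped with 5. In PZH administration against DEN model rats, Ghr and Igf1 each lay above with 6 markers, below with 1 and overlapped with 5, and Igfals lay above with 4 and overlapped with 8. These ratios were chosen after the levels were seen and carry no test.

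Igfbp3 (chromosome 14, 87457647 to 87465374) encodes the main IGF carrier of the blood complex and is made largely outside hepatocytes in the liver. It was at 122, 118 and 135 CPM in N1, N3 and N12, at 181, 133 and 153 CPM in M13, M17 and M24, and at 142, 192 and 166 CPM in G27, G28 and G42. The DEN model rats overlapped both other groups, and no comparison passed the test, with log2 differences of 0.33 (95% interval -0.11 to 0.77) in DEN model and 0.42 (-0.01 to 0.85) in PZH administration against normal control rats. With library totals Igfbp3 was called higher in DEN model rats (log2 fold change 1.21, edgeR adjusted p = 0.00184), and in the authors' FPKM it was 40.3 ± 4.42, 93.0 ± 23.3 and 63.3 ± 11.7 in normal control liver, in DEN model liver and after PZH, in that order (SD, n = 3 each). As a ratio within a rat, there were 3.32 to 3.91 Igf1 counts for each Igfbp3 count in normal control rats, 0.312 to 1.22 in DEN model rats and 2.22 to 2.67 in PZH administration rats, so the groups did not overlap in the balance of growth factor to carrier transcripts. This ratio was chosen after the levels were seen and carries no test.

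Igfbp1 (chromosome 14, 87448692 to 87453785) lies beside Igfbp3 and encodes a binding protein that hepatocytes secrete and that insulin represses. It was at 673, 879 and 1306 CPM in N1, N3 and N12, at 398, 214 and 319 CPM in M13, M17 and M24, and at 467, 562 and 160 CPM in G27, G28 and G42. On this scale all rats that had received DEN lay below all normal control rats, and the DEN model and PZH administration rats overlapped. In the authors' FPKM, which carry no TMM scaling, M13 (387) lay above N1 (350). Igfbp1 was 3.04-fold lower in DEN model than in normal control rats (log2 fold change -1.61, standard error 0.35, edgeR adjusted p = 0.00665), and with library totals the call was lost (log2 fold change -0.71, adjusted p = 0.104). Its log2 difference was 0.38 (95% interval -0.66 to 1.42) in PZH administration against DEN model rats, which library totals turned to -0.34. Against normal control rats it was -1.26 (-2.26 to -0.27, edgeR adjusted p = 0.157), and DESeq2 called this difference (adjusted p = 0.0316). Per 1000 Alb counts Igfbp1 was at 6.60 to 14.5 in normal control, 6.96 to 22.6 in DEN model and 2.33 to 7.40 in PZH administration rats, so the normal control and DEN model rats overlapped. Beside the 12 hepatocyte markers one at a time, the DEN model rats overlapped the normal control rats for 10 markers and lay above them for 2, Tat and Ttr.

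The Igfbp1 promoter is shown because it holds CAAAACA, the letters of the insulin response element that FoxO factors read, 121 bases before the start. Searched on both strands, this motif was in 6.28% of all promoter windows, and among the windows of the 10 genes also once each in those of Igf1, Cish and 1 of the windows of Prlr. The HNF1 motif, searched as an exact palindrome with 1 free base, was in 1 of 33469 windows (0.00299%) and in none of these genes' windows. A search this strict finds almost no window, so it cannot tell whether these promoters hold an HNF1 site. The 250 bases before the start of Igfbp1, at chr14:86261027-86261276 on the plus strand of GRCr8, are given 5′ to 3′ with the CAAAACA match in capitals.
Igfbp1: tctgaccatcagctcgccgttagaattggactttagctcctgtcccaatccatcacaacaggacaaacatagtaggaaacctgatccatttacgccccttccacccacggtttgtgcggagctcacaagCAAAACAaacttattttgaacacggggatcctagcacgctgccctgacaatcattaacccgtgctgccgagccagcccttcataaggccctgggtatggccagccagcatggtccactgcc

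Igfbp2 (chromosome 9, 80118029 to 80144789), whose product is a binding protein of fetal liver and of some tumours, was scarce in normal control liver, at 3.36, 1.93 and 2.29 CPM in N1, N3 and N12. It was at 11.2, 13.8 and 5.25 CPM in M13, M17 and M24 and at 25.3, 13.6 and 6.84 CPM in G27, G28 and G42. Every rat that had received DEN lay above every normal control rat, and the DEN model and PZH administration rats overlapped. Igfbp2 was 4.03-fold higher in DEN model than in normal control rats (log2 fold change 2.01, standard error 0.40, edgeR adjusted p = 0.00443). In PZH administration rats it was 6.09-fold higher than in normal control rats (log2 fold change 2.61, standard error 0.48, edgeR adjusted p = 0.0179), with adjusted p from 0.0597 to 0.0705 without N1, N3, N12 or G28. Between PZH administration and DEN model rats the log2 difference was 0.64 (95% interval -0.52 to 1.80), which library totals turned to -0.02.

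Set per length, the binding proteins of this list were a minor share of all Igfbp transcripts in liver, apart from Igfbp1. Of the summed FPKM of the 7 Igfbp genes in a rat, Igfbp1 held 26.4% to 44.6% in normal control, 17.6% to 25.8% in DEN model and 11.8% to 31.5% in PZH administration rats. Igfbp3 held 2.93% to 3.52%, 6.95% to 7.47% and 3.79% to 7.81% in the same order. Igfbp4, a binding protein cleaved by the protease PAPP-A, held 46.8% to 64.9% in normal control, 14.7% to 36.7% in DEN model and 39.2% to 64.1% in PZH administration rats. Igfbp7, a more distant relative with low affinity for IGF, held 5.34% to 6.35%, 35.8% to 52.8% and 10.6% to 21.2%. The normal control and DEN model rats did not overlap for any of these 4 shares, and the shares were not tested.

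**Figure D3:**
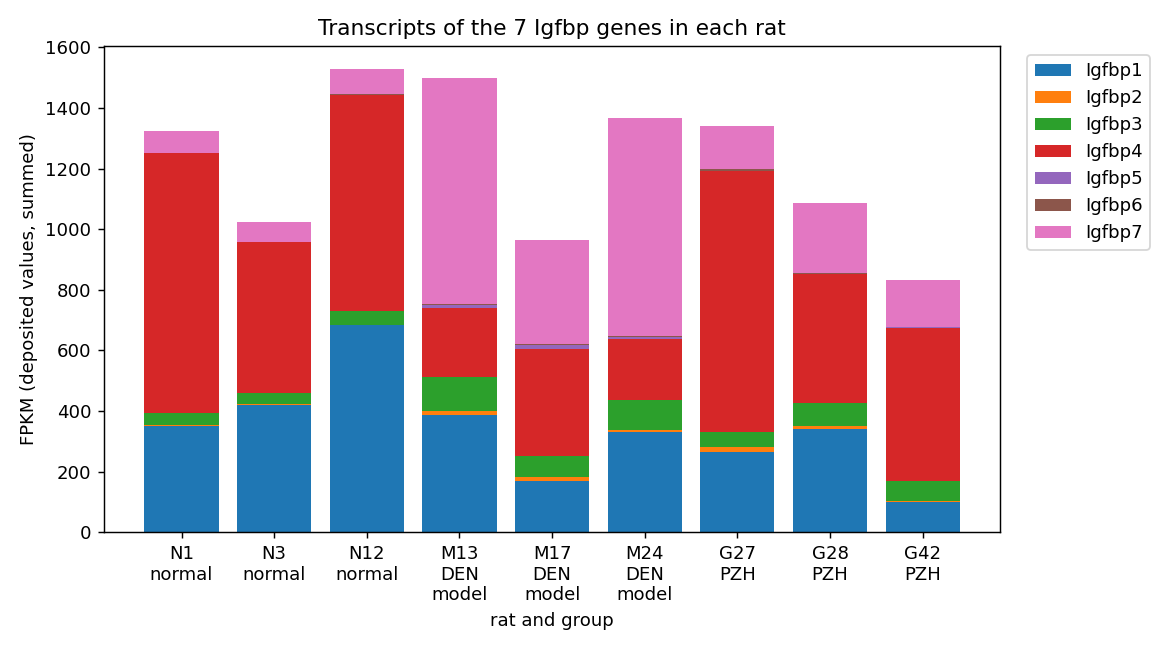
Summed FPKM of the 7 Igfbp genes in each rat, as deposited, with 1 bar a rat and 1 colour a gene. Igfbp4 and Igfbp1 fill most of the bars of normal control rats, and Igfbp7 fills 35.8% to 52.8% of those of DEN model rats.

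Beyond the 10 genes, a list of 33 further genes of growth hormone and IGF signalling was followed, of which 31 were found by symbol. Gh1, the growth hormone gene itself, had 0 counts in every rat. Of 29 genes tested in DEN model against normal control rats 12 rose and 7 fell, 19 of 29 beside 45.8% of all genes. With library totals 16 were called higher and 3 lower, beside 9084 of all 14255 genes called. In PZH administration against DEN model rats 2 of 29 rose and 5 fell, beside 19.1% of all genes. With library totals 1 was called higher and 16 lower, beside 6252 of all 14272 genes called. The number called was 0 without M13, 2 without M24, 3 without G27 or G28, 1 without G42 and 12 without M17. Over all genes it was 2722 with every rat, 271 without M13, 725 without M24 and 3319 without M17. It was 2213, 1178 and 1221 without G27, G28 and G42, in that order. Against normal control rats 2 of 27 rose in PZH administration rats and none fell, beside 5.21% of all genes. None was called without N1, 1 was called higher without N3, and without G28 none was called higher and 1 lower.

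Among the genes of this list that fell in DEN model liver was Bcl6, which encodes a repressor of transcription that shares target genes with STAT5. Bcl6 was at 87.1, 85.3 and 77.1 CPM in N1, N3 and N12, at 6.93, 7.87 and 17.1 CPM in M13, M17 and M24, and at 12.1, 60.7 and 28.3 CPM in G27, G28 and G42. All rats that had received DEN lay below the normal control rats, and G27 lay inside the DEN model range. The log2 fold change of Bcl6 was -2.95 (standard error 0.34, edgeR adjusted p = 0.000406) in DEN model against normal control rats and 1.68 (standard error 0.58, edgeR adjusted p = 0.0761) in PZH administration against DEN model rats.

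The IGF binding proteins outside the 10 genes split in direction. Igfbp4 fell in DEN model rats (log2 fold change -2.20, standard error 0.40, edgeR adjusted p = 0.00277) and was higher in PZH administration than in DEN model rats (1.83, standard error 0.44, edgeR adjusted p = 0.0268). Igfbp5 had a log2 fold change of 4.04 (standard error 0.51, edgeR adjusted p = 0.000624) in DEN model against normal control rats and of -1.47 (edgeR adjusted p = 0.0248) in PZH administration against DEN model rats. Against normal control rats Igfbp5 remained higher in PZH administration rats, at 14.7 to 20.6 against 1.85 to 5.57 CPM (log2 fold change 2.54, edgeR adjusted p = 0.0122). Igfbp7 had log2 fold changes of 2.16 (edgeR adjusted p = 0.000561), -1.09 (edgeR adjusted p = 0.0375) and 1.03 (edgeR adjusted p = 0.0297) in the 3 comparisons. Of 7 stellate and myofibroblast markers, 6 were higher in DEN model than in normal control rats, beside 25.3% of all genes. In PZH administration against DEN model rats 4 of 7 were lower, beside 10.3%. All 6 cholangiocyte markers were called in these same directions, as were Igfbp5 and Igfbp7. Within the DEN model rats, M17 had the lowest stellate sum (1003 CPM), the lowest Igfbp7 (314 CPM) and the highest Igfbp5 (79.9 CPM). M24 had the highest stellate sum (3118 CPM) and the lowest Igfbp5 (31.0 CPM). M13 lay between these rats for the stellate sum (1903 CPM) and Igfbp5 (44.2 CPM). Igfbp7 was highest in M13 (554 CPM), above M24 (505 CPM). The part of either marker set in these values was not tested.

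Igf1r, the gene of the IGF-1 receptor, which adult hepatocytes hardly express, was at 0.469 to 1.007 CPM in normal control, 2.92 to 5.57 CPM in DEN model and 0.641 to 2.37 CPM in PZH administration rats. It rose in DEN model rats (log2 fold change 2.70, standard error 0.46, edgeR adjusted p = 0.00215), and its difference between PZH administration and DEN model rats was -1.68 (standard error 0.51, edgeR adjusted p = 0.0535). Stc1 and Stc2, the genes of the stanniocalcins, which inhibit the proteases that free IGF from IGFBP-4, rose by 3.28 (edgeR adjusted p = 0.000994) and 3.51 (edgeR adjusted p = 0.00775) on the log2 scale in DEN model rats. Normal control rats held only 4 to 13 counts of Stc1 and 0 to 4 of Stc2, around the floor of 3 counts for Stc2. Stc1 was then lower in PZH administration than in DEN model rats (-1.97, edgeR adjusted p = 0.0249). Grb10, an adaptor that inhibits the insulin and IGF-1 receptors, was also lower there (-2.08, edgeR adjusted p = 0.0264), as was Adam17, the gene of a membrane protease (-0.73, edgeR adjusted p = 0.0245). Both had risen in DEN model against normal control rats, Grb10 by 2.25 (edgeR adjusted p = 0.00835) and Adam17 by 0.92 (edgeR adjusted p = 0.00227). Htra1, the gene of a secreted serine protease, fell in DEN model rats (-1.45, edgeR adjusted p = 0.00056) and was higher in PZH administration than in DEN model rats (0.85, edgeR adjusted p = 0.0164).

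Igf2, the fetal growth factor gene, was high in M24 and in no other rat. It was at 0.892, 3.32 and 61.0 CPM in M13, M17 and M24, at 1.007 to 2.21 CPM in normal control and at 0.427 to 1.04 CPM in PZH administration rats. The fitted log2 difference between DEN model and normal control rats was 3.85 (standard error 1.37, edgeR adjusted p = 0.0477), while M13 lay below all normal control rats in CPM. M13 had 21 counts, and in the authors' FPKM it lay inside the normal control range (0.225 against 0.125 to 0.300). M24 also had the lowest hepatocyte marker sum and the highest cholangiocyte and stellate marker sums of the 9 rats.

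**Figure D4:**
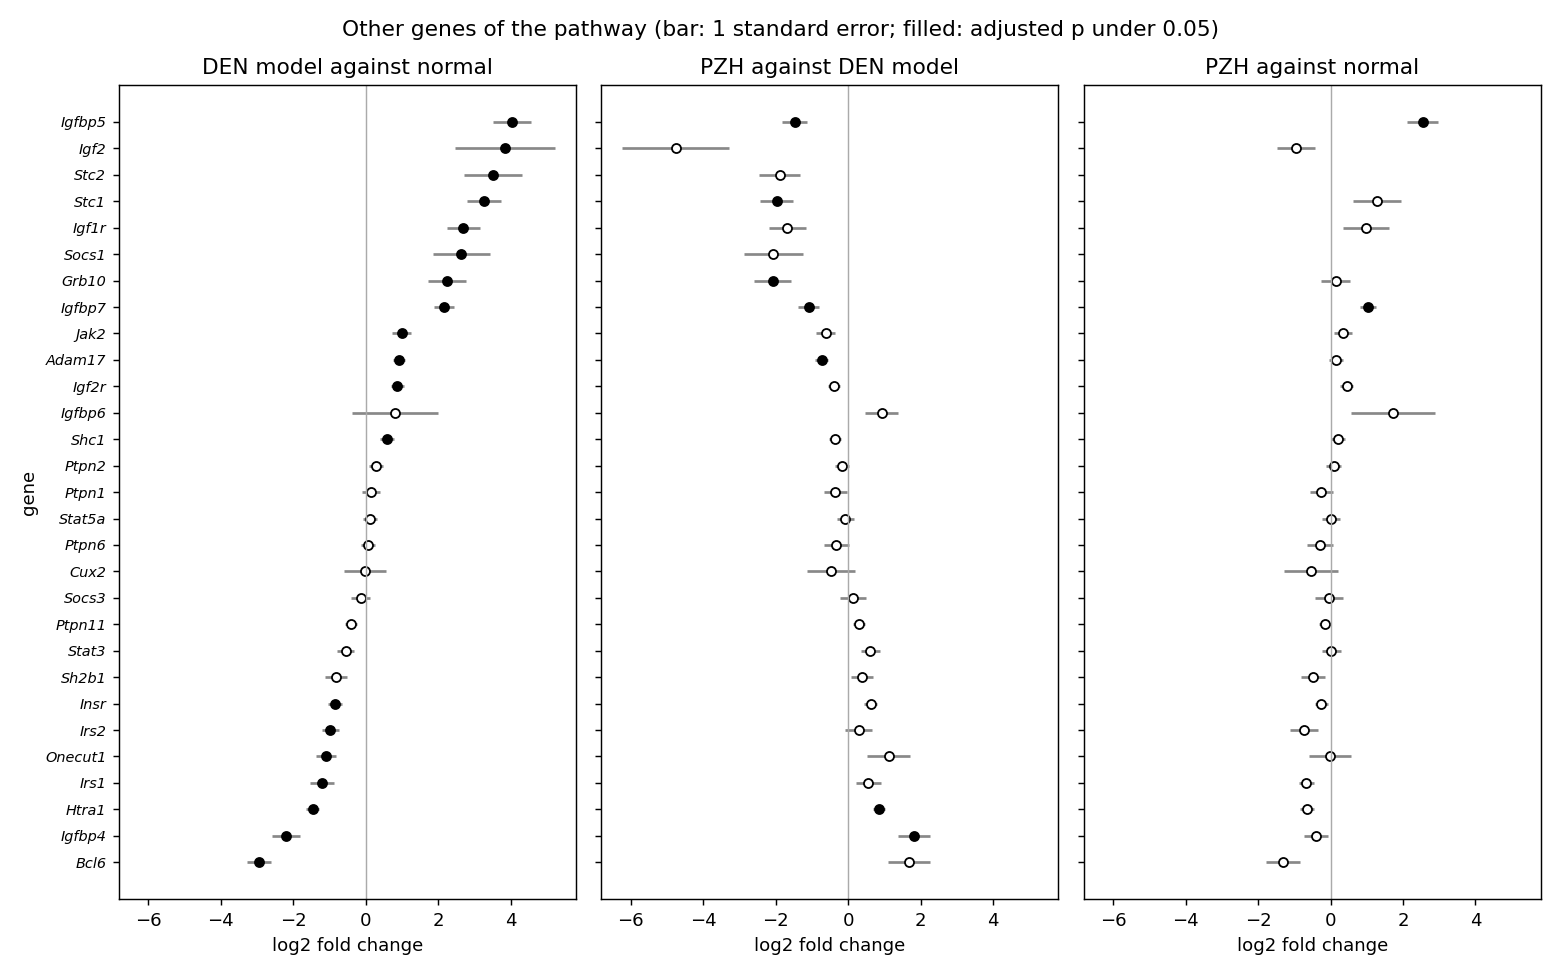
Fitted log2 fold change of each tested gene of the wider growth hormone and IGF signalling list in the 3 comparisons; filled points are genes called by edgeR at an adjusted p under 0.05. Igfbp5 and Bcl6 stand at 4.04 and -2.95 in DEN model against normal control rats.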

How the data were processed

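Whole-liver mRNA of 9 rats was sequenced, 1 library a rat. Per the labels and the submitters' processing notes, reads were trimmed with fastp, aligned with HISAT2 (2.1.0), assembled with StringTie (1.3.3b) and compared with edgeR (3.30.3), and the genome build is not given in the sources used here. The authors deposited raw counts and FPKM for each gene and rat. Their columns of pairwise fold changes and p-values were not used. FPKM were used only to compare levels between genes and as a check on scaling.

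Here, the counts were analysed in R (4.3.3) with edgeR (4.0.16), separately for each pair of groups, with filterByExpr, TMM scaling and the quasi-likelihood test. A gene was called at a Benjamini-Hochberg adjusted p under 0.05 over all genes tested, and the study's thresholds were applied as a further call. With 3 rats a group, an exact permutation test of 1 gene cannot go below p = 0.1 and was not used. Total counts were 14922973 to 27161496 a rat, and floors of 3 counts cover counting error only. For Cish and Igfbp2 in normal control rats, with counts as low as 23, counting error is a sizeable part of the spread between rats. Rats within a group differed by more than sampling noise, so none was merged.

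The 10 genes and all lists were chosen with earlier results of these data known. Genes named beyond the 10 were those of the signalling list past the study's thresholds or among the 3 highest and 3 lowest called in a comparison, the 5 genes with an official symbol whose centred log2(CPM + 1) profile over the 9 rats was nearest to that of Igf1, and a list of sex-patterned liver genes. Alternatives were DESeq2 (1.42.0), library totals, no filter, a minimum of 10 counts for each rat, a single fit of the 3 groups, leaving out each rat in turn and, chosen after seeing the data, G27 thinned at random to the second-largest total. Scripts were tested on simulated data. Promoters came from RefSeq (GRCr8).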

Additional observations from a re-analysis of the deposited data

How the results depend on the processing

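With library totals in place of TMM, directions turned for Stat5b (0.13) and Socs2 (0.83) in DEN model against normal control rats, for Prlr (-0.30), Stat5b (-0.19), Igfbp3 (-0.56), Igfbp1 (-0.34) and Igfbp2 (-0.0204) in PZH administration against DEN model rats, and for Igf1 (0.14) in PZH administration against normal control rats, all as log2 fold changes. With at least 10 counts in every rat Socs2 turned to 0.066 in the first of these, and Cish in PZH administration against normal control rats missed the threshold, which brought the number called from 2 to 1. The cause of these changes was not tested. The number past the study's thresholds in PZH administration against DEN model rats went from 0 to 1 with DESeq2, with no filter and with all 3 groups in 1 fit, and that against normal control rats from 1 to 2 with each of these and with library totals. In the signalling list the number called in PZH administration against DEN model rats was 7, and 13 with DESeq2, 17 with library totals and 11 with all 3 groups in 1 fit. Over all genes the numbers called were 2722, 3781, 6252 and 2889 in the same order. Thinning G27 changed no count.

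Leaving out 1 rat at a time, 7 to 8 of the 10 genes were called in DEN model against normal control rats, 0 to 3 in PZH administration against DEN model rats and 0 to 3 against normal control rats. The numbers past the study's thresholds ran from 2 to 3, 0 to 2 and 0 to 2, and those of the signalling list from 15 to 19, 0 to 12 and 0 to 2. The numbers called over all genes ran from 4724 to 6790, 271 to 3319 and 207 to 1326 in the same order. The log2 fold change of Socs2 ran from -0.40 to 0.21, -0.40 to 1.62 and -0.48 to 1.52 in the 3 comparisons, and that of Prlr in PZH administration against DEN model rats from -0.0698 to 0.86. Of the single-gene values without 1 rat, 154 kept direction and side of the threshold, 18 lost and 2 gained the call, and 6 turned. Where a group was left with 2 rats the spread was pooled over both groups. No paired analysis was possible because the groups share no rat numbers. Among the 10 genes, depth limits Cish and Igfbp2 most, with counts as low as 23 in a normal control rat.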

Other observations

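Liver genes whose sex pattern in rats follows the rhythm of growth hormone secretion parted in PZH administration liver. Cyp2c13, a male-predominant cytochrome P450, had log2 fold changes of -5.06 (standard error 0.60, edgeR adjusted p = 0.000445) in DEN model against normal control rats, 4.66 (standard error 0.56, edgeR adjusted p = 0.0078) in PZH administration against DEN model rats and -0.44 (standard error 0.27, edgeR adjusted p = 0.450) in PZH administration against normal control rats. Cyp2c11, of the same pattern, had -10.73, 9.39 and -1.39 (edgeR adjusted p = 1.79e-05, 0.000529 and 0.0516). The female-predominant Cyp2c12 was higher than in normal control rats both in DEN model rats (2.87, standard error 0.63, edgeR adjusted p = 0.00669) and in PZH administration rats (3.02, standard error 0.46, edgeR adjusted p = 0.00922), with 0.16 (edgeR adjusted p = 0.861) between them. A1bg, also female-predominant, had 4.03, -0.44 and 3.56 (edgeR adjusted p = 0.00389, 0.681 and 0.0156). Cyp3a2 and Cyp2a2 were not matched by symbol.

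The genes whose levels over the 9 rats were nearest to those of Igf1, by the root mean square difference of centred log2(CPM + 1) values among 12703 genes compared, were Serpind1 (0.242), Cpb2 (0.242), Acsm3 (0.265), Spink1l (0.269) and Gpr146 (0.279). Serpind1 encodes heparin cofactor II and Cpb2 a carboxypeptidase of the clotting system, both secreted by hepatocytes. Serpind1 was at 928 to 1203 CPM in normal control, 104 to 470 CPM in DEN model and 761 to 841 CPM in PZH administration rats. The choice of these genes by likeness fixes their pattern over the rats, so it is a description only.

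G27 was the highest of the PZH administration rats in 7 of the 10 genes, and in 40.3% of 14438 genes in all.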
